A study of Homo sapiens with 12 samples.

Results

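Expression on 2 arrays of day 22 was compared with that on 2 arrays of lung progenitors sorted for high CD47 at day 15, which are 4 of the 12 arrays of a differentiation series. All cells came from RUES2, an established human embryonic stem cell line, and shared a stepwise protocol in which definitive endoderm became anterior foregut and then lung progenitors. Per the labels, progenitors sorted on CD47 were afterwards cultured in a medium low in Wnt activity towards airway epithelium. The day 22 arrays carry the letters A and C and the day 15 CD47hi arrays the letters B and C. The other arrays hold undifferentiated cells at day 0 (n = 2) and SCGB3A2- and SCGB3A2+ cells sorted at day 36 (n = 3 each), and they enter here through the shared estimate of spread and as further stages. The titles name a sort at day 15 and none at day 22, so time, medium and sorting cannot be told apart. The labels do not say whether a group's arrays hold RNA of different cultures, and all p-values therefore rest on array-to-array spread that may be technical. All members of the comparison, 23786 probe sets with 1 value per array, were tested.

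As background, the lung epithelium forms from a patch of foregut endoderm that switches on the transcription factor NKX2-1, and liver, stomach and intestine arise from neighbouring endoderm. Wnt signals specify that patch and later favour distal fates, FGF signals drive outgrowth, and Hedgehog ligands pass from the epithelium to the mesenchyme. Maturing lung epithelium makes secretoglobins in the airways and surfactant proteins in alveolar type 2 cells.

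Levels are RMA log2 values, which ran from 0.265 to 12.3 over the table, and differences are day 22 minus day 15 CD47hi group means on the log2 scale ± limma's standard error (SE, n = 2 arrays each). The per-array medians lay between 3.66 and 3.75. The 2 day 22 arrays correlated at r = 0.987 and the 2 day 15 arrays at 0.991, against 0.937 to 0.943 between the groups (across genes, which are not replicates). limma called 2129 probe sets higher (8.95%) and 2514 lower (10.6%) at an adjusted p under 0.05. Counts of list members given below stand beside these shares. The higher calls were larger: 1129 (4.75%) were at least 2-fold higher and 920 (3.87%) at least 2-fold lower, and 88 were at least 16-fold higher and 14 at least 16-fold lower. The median difference over all probe sets was -0.011. Leaving out 1 of the 4 arrays lowered the calls, to 1457 higher and 1426 lower without day 15 B, 1364 and 1495 without day 15 C, 1659 and 1700 without day 22 A, and 1481 and 1536 without day 22 C.

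**Figure D1:**
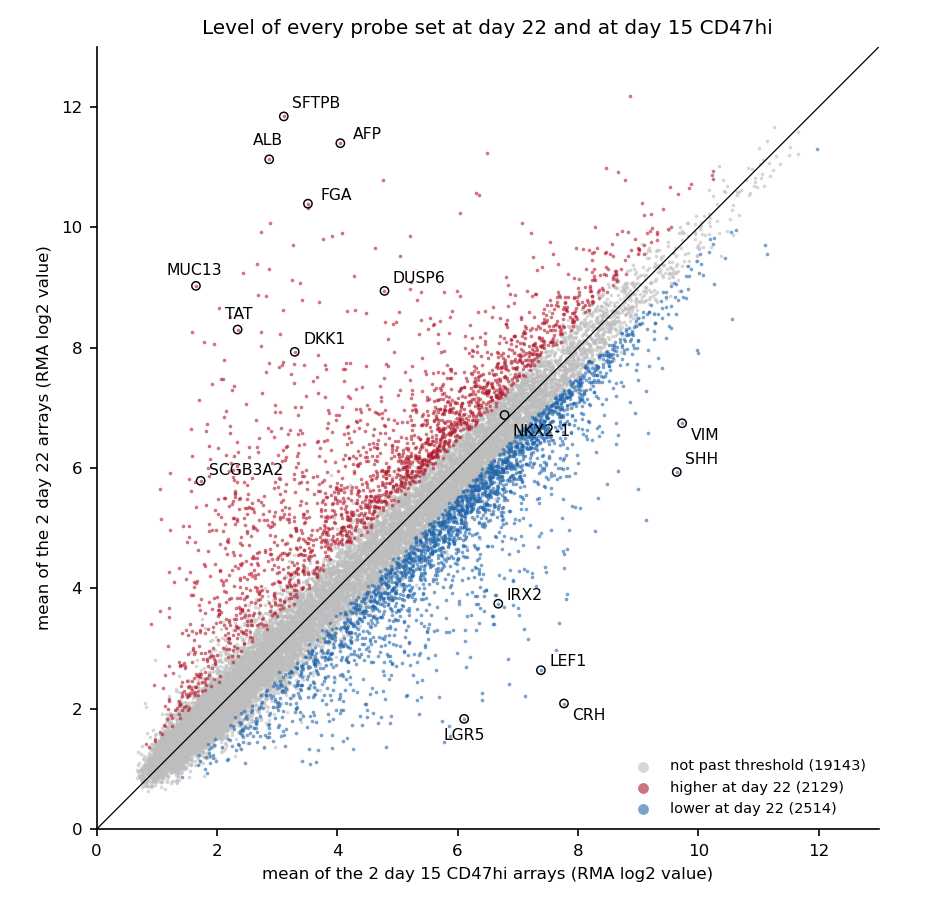
Mean level of every probe set on the 2 day 22 arrays (vertical axis, RMA log2 value) against its mean on the 2 day 15 CD47hi arrays (horizontal axis, RMA log2 value), with the 2129 probe sets called higher, the 2514 called lower and the rest in separate colours and 16 genes ringed. Points far above the diagonal, such as SFTPB and ALB, lie farther from it than the points below, such as CRH and LEF1.

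The label of the groups was checked against markers of 17 cell types, and 103 of 110 marker entries had a probe set. The 8 lung progenitor markers averaged 8.35 and 8.29 on the day 22 arrays, against 8.57 and 8.65 on the day 15 arrays. Of these 8, SFTA3 rose (1.85 ± 0.18) and the ligand gene SHH (-3.71 ± 0.38) and the endoderm factor FOXA2 fell, and the other 5 did not pass. Among them NKX2-1 had levels of 7.02 and 6.75 at day 22, against 6.73 and 6.83 at day 15 (difference 0.10 ± 0.25, adjusted p = 0.849), and the groups overlapped. The foregut factor FOXA1 (-0.20 ± 0.29, adjusted p = 0.721), the adhesion gene CDH1 (-0.026 ± 0.16, 0.949), the progenitor surface peptidase CPM (0.45 ± 0.21, 0.17) and the sorting antigen CD47 (-0.43 ± 0.19, 0.137) did not pass the test either. CPM passed without day 22 C (0.76, adjusted p = 0.0352). FOXA2 had 6.58 and 6.54 at day 22, against 7.4 and 7.45 at day 15 (difference -0.87 ± 0.13, adjusted p = 5.29e-04). Airway secretory markers averaged 4.96 and 4.70 at day 22, against 3.66 and 3.53 at day 15, with 2 of 6 higher (SCGB3A2 and SCGB1A1). The secretory genes SCGB3A1 (2.49 at day 22, against 2.22 at day 15) and MUC5B (2.5 at day 22, against 2.35 at day 15) did not pass. The series calls the day 22 cells early airway progenitors. Of the ciliated markers 1 of 6 fell (the axonemal dynein gene DNAH5, -0.73 ± 0.23) and 0 rose, and the ciliogenesis factor FOXJ1 did not pass (-0.14 ± 0.32, adjusted p = 0.846). The DNAH5 call was lost without day 15 B (-0.50, adjusted p = 0.304), day 22 A (-0.85, adjusted p = 0.0801) or day 22 C (-0.61, adjusted p = 0.226), with the 4 arrays alone (-0.73, adjusted p = 0.0645) and with an intensity trend (-0.73, adjusted p = 0.0525). Of the forebrain markers 1 of 5 fell (the homeobox gene OTX2, -1.23 ± 0.31) and 0 rose, and OTX2 no longer passed without day 15 B (-1.07, adjusted p = 0.115) or day 22 A (-1.0, adjusted p = 0.119). In both directions 0 of 5 basal, 0 of 5 neuroendocrine, 0 of 5 thyroid, 0 of 6 endothelial and 0 of 6 pluripotency markers passed.

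Markers of other endoderm rose as well. All 7 measured liver markers rose, with mean levels of 10.4 and 10.8 at day 22, against 4.41 and 5.58 at day 15, and 6 of 8 markers of intestine and stomach rose, with means of 5.82 and 6.41 at day 22, against 3.62 and 3.88 at day 15. Alveolar type 2 markers averaged 7.38 and 6.54 at day 22, against 2.67 and 2.88 at day 15, and 7 of 8 rose. The day 22 arrays therefore differed in opposite ways, with the higher alveolar type 2 mean on A and the higher liver and gut means on C. The day 15 C array had the higher liver mean of its group. Of the mesenchymal markers 4 of 8 fell and 1 rose, of the smooth muscle markers 2 of 5 fell, and 1 of 5 blood markers (CD68, a lysosomal glycoprotein of macrophages, 3.02 ± 0.36) and 1 of 5 neuron markers (SNAP25, 1.68 ± 0.31) rose. The part of these other markers in the results that follow was not tested. In bulk RNA, fewer cells of a type and less RNA per cell cannot be told apart.

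The upstream windows of SCGB3A2 and ALB, an airway and a liver gene that both rose, are shown because they hold matches to motifs of endoderm transcription factors. They are RefSeq windows of GRCh38.p14 from 250 bases before to 50 bases after a transcript start, with the matches in capitals. SCGB3A2 is shown at chr5:147878461-147878760 and ALB at chr4:73404037-73404336, both on the plus strand.
SCGB3A2: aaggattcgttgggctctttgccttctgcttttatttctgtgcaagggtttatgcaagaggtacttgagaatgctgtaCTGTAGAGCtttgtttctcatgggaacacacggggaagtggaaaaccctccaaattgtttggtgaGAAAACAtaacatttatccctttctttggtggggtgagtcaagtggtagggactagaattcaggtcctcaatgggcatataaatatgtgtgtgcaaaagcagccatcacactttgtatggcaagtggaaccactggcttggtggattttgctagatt
ALB: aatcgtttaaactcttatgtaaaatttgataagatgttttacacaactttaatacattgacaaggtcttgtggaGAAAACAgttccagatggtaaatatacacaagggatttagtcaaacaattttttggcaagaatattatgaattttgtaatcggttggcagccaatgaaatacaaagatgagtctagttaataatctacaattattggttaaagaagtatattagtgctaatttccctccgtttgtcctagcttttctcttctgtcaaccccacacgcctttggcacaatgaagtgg
The motifs searched, on both strands and with overlaps counted, were GCNCTNNAG for NKX2-1 and TGTTTNC for FOXA factors. Over 35116 windows, 17.7% held the NKX2-1 motif and 18.0% the FOXA motif. The SCGB3A2 window held 1 match to each, and the matches did not overlap. The ALB window held 1 FOXA match and 0 NKX2-1 matches. Both windows were picked from larger sets of genes, some with several windows, and a gene counted if any of its windows matched. Of 10 lung and 14 liver genes in these sets, 8 and 11 had a window to search. The NKX2-1 motif was held by 3 of 8 lung genes (37.5%) and 4 of 11 liver genes (36.4%). The FOXA motif was held by 4 of 8 and 6 of 11 (54.5%). These shares per gene are not like for like with the shares per window over all windows. Matches describe these letters only, and no binding was measured.

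The 15 largest increases included genes of secreted and membrane proteins. SFTPB, a surfactant protein gene, had 11.93 and 11.77 at day 22, against 3.1 and 3.12 at day 15, a 426-fold difference (8.74 ± 0.15, adjusted p = 4.88e-11). ALB, the main plasma protein of the liver, whose window is printed above, had 11.06 and 11.2 at day 22, against 2.79 and 2.95 at day 15 (308-fold, 8.26 ± 0.29, adjusted p = 1.59e-08). The arrays of the 2 groups lay far apart for both. ITIH2, the gene of a plasma protein that binds hyaluronan, had 10.1 and 9.76 at day 22, against 2.97 and 2.48 at day 15 (difference 7.21 ± 0.19, adjusted p = 1.45e-09). TM4SF4 and TM4SF1 encode tetraspan membrane proteins and lie next to each other on chromosome 3 with 0 protein-coding genes between them. TM4SF4 had 10.05 and 10.11 at day 22, against 2.81 and 2.97 at day 15 (7.19 ± 0.16). TM4SF1 had 10.51 and 10.15 at day 22, against 3.59 and 3.42 at day 15 (6.82 ± 0.23). UPK1B, a uroplakin gene of apical membrane plaques, had 8.65 and 8.68 at day 22, against 1.88 and 2.18 at day 15. TCN1, which encodes a secreted vitamin B12 binder, had 9.92 and 8.71 at day 22, against 3.24 and 2.47 at day 15. SLC2A2, the glucose transporter gene of liver and beta cells, had 8.06 and 8.13 at day 22, against 2.2 and 1.36 at day 15 (difference 6.32 ± 0.33, adjusted p = 3.59e-07). NTS, the neurotensin gene, had 7.88 and 8.64 at day 22, against 1.51 and 1.67 at day 15 (6.67 ± 0.36, adjusted p = 4.21e-07). SULF1 encodes an enzyme that trims heparan sulfate on the cell surface, and its levels were 10.15 and 9.28 at day 22, against 3.67 and 2.86 at day 15 (difference 6.45 ± 0.35, adjusted p = 4.85e-07).

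The remaining genes among the 15 largest increases were AFP (7.35 ± 0.45), MUC13 (7.38 ± 0.36), FGA (6.88 ± 0.44), GP2 (6.8 ± 0.39) and AGR2 (6.74 ± 0.42). Their arrays did not overlap between the groups, which held for 27.7% of all probe sets in the higher and 31.4% in the lower direction. AFP was uneven at day 15, with levels of 11.43 and 11.37 at day 22, against 3.19 and 4.91 at day 15. Of genes outside the rule for named genes, and chosen after their values were seen, SPP1, which encodes the secreted phosphoprotein osteopontin, had 10.87 and 10.7 at day 22, against 4.83 and 4.7 at day 15 (6.02 ± 0.18, adjusted p = 7.11e-09). EPAS1, a hypoxia-responsive transcription factor, had 8.49 and 8.76 at day 22, against 4.48 and 4.1 at day 15 (4.33 ± 0.19, adjusted p = 1.03e-07).

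The 15 largest decreases included signalling, adhesion and cytoskeletal genes. CRH, the gene of corticotropin-releasing hormone, had 2.05 and 2.12 at day 22, against 8.09 and 7.45 at day 15 (difference -5.68 ± 0.19, adjusted p = 1.59e-08). RASGRF2, an exchange factor for Ras and Rac, had 2.12 and 2.3 at day 22, against 7.39 and 6.85 at day 15 (-4.9 ± 0.21, adjusted p = 8.61e-08). CPA6, a carboxypeptidase of the extracellular matrix, had 1.4 and 1.49 at day 22, against 5.91 and 5.63 at day 15 (-4.32 ± 0.16, adjusted p = 2.70e-08). CRH, RASGRF2 and CPA6 were near the floor of the scale at day 22, as was the next gene, DCLK2. DCLK2, a microtubule-associated kinase, had 1.77 and 1.65 at day 22, against 6.05 and 5.66 at day 15 (-4.15 ± 0.17, adjusted p = 7.91e-08). The secreted genes CYTL1 (-4.26 ± 0.27) and NDNF (-4.25 ± 0.26), the protocadherin PCDH18 (-4.15 ± 0.32), the matrix protease MMP2 (-4.01 ± 0.27), the tubulin-binding TPPP3 (-4.01 ± 0.64) and the interferon-inducible EPSTI1 (-3.98 ± 0.22) fell as well. MMP2 had 3.04 and 3.28 at day 22, against 7.24 and 7.09 at day 15. EPSTI1 had 4.05 and 3.6 at day 22, against 8.02 and 7.59 at day 15. Histone gene H4C4 fell by a similar amount (-3.98 ± 0.29), and 2 other H4 genes, chosen after their values were seen, were also lower, with H4C2 at -2.94 ± 0.27 and H4C3 at -2.01 ± 0.22. H4 genes are near-identical copies, so the split of signal among them is uncertain.

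**Figure D2:**
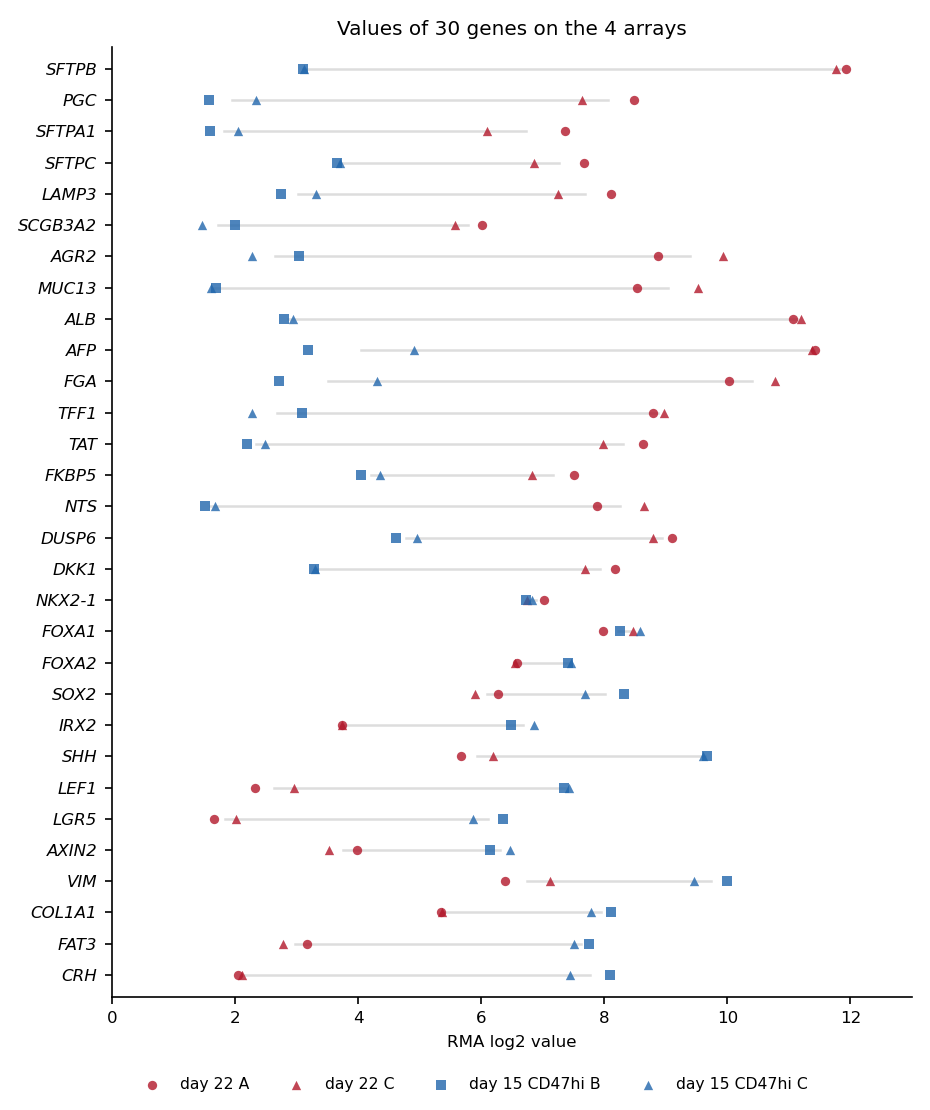
RMA log2 values (horizontal axis) of 30 genes on the 2 day 22 arrays and the 2 day 15 CD47hi arrays, 1 symbol per array, with a grey line joining the group means. The day 22 values of SFTPB lie at 11.77 and 11.93 and its day 15 values at 3.10 and 3.12, while those of NKX2-1 and FOXA1 overlap between the groups.

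The surfactant and lamellar body list had 15 of 17 measured members higher and 0 lower, with a median difference of 3.23, against -0.011 over all probe sets. PGC, a pepsinogen gene expressed in stomach and type 2 cells, had 8.48 and 7.64 at day 22, against 1.58 and 2.34 at day 15 (6.1 ± 0.36, adjusted p = 7.68e-07). The phosphate carrier gene SLC34A2 had 8.57 and 7.5 at day 22, against 2.79 and 2.67 at day 15 (5.31 ± 0.40, adjusted p = 4.02e-06). SFTPA1, a collectin of surfactant, had 7.37 and 6.09 at day 22, against 1.6 and 2.06 at day 15 (4.9 ± 0.44, adjusted p = 1.52e-05). Day 22 A was the higher array of its group for all of them. The lamellar body genes LAMP3 (4.65 ± 0.30, adjusted p = 1.38e-06), ABCA3, a lipid transporter (2.73 ± 0.29, adjusted p = 5.41e-05), NAPSA, a protease that processes surfactant proteins (3.23 ± 0.32, adjusted p = 3.01e-05), and LPCAT1, an enzyme of surfactant lipid synthesis (1.99 ± 0.18, adjusted p = 2.04e-05), rose too. SFTPC had 7.66 and 6.85 at day 22, against 3.66 and 3.71 at day 15 (3.57 ± 0.44, adjusted p = 1.69e-04). SFTA2 had 6.82 and 6.5 at day 22, against 2.67 and 3.46 at day 15 (3.59 ± 0.24, adjusted p = 2.00e-06). SFTA3, which lies next to NKX2-1 on chromosome 14, rose by 1.85 ± 0.18 where NKX2-1 did not pass. The collectin gene SFTPD did not pass (0.35 ± 0.49, adjusted p = 0.716) and lay at 3.40 on day 22 A, against 2.26 on day 22 C. Of 5 alveolar type 1 markers 2 rose and 1 fell, with a median of 0.14. HOPX rose, with 7.54 and 7.07 at day 22, against 4.35 and 4.26 at day 15 (3.0 ± 0.20, adjusted p = 1.94e-06). CLIC5 rose as well (1.8 ± 0.22), while RTKN2 fell (-1.12 ± 0.18). AGER and AQP5 (0.00047, adjusted p = 0.999) did not pass. SFTPA1 has a near-identical copy, so its signal is uncertain.

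Of 28 airway secretory genes, 12 rose and 0 fell, and the median difference was 0.61. SCGB3A2, the secretoglobin on which cells were sorted at day 36, had 6.01 and 5.57 at day 22, against 2.0 and 1.46 at day 15 (4.06 ± 0.26, adjusted p = 1.41e-06), below its level on the day 0 arrays (mean 7.15). SCGB1A1, the club cell secretoglobin, had 6.01 and 5.69 at day 22, against 3.69 and 3.5 at day 15 (2.25 ± 0.55, adjusted p = 0.0136). It no longer passed without day 15 B (2.35, adjusted p = 0.057), without day 15 C (2.16, adjusted p = 0.0792) or without day 22 A (2.09, adjusted p = 0.0788). The protein disulfide isomerase gene AGR3 had 5.22 and 6.09 at day 22, against 1.26 and 0.85 at day 15 (4.6 ± 0.30, adjusted p = 1.41e-06). The antiprotease SLPI had 6.56 and 6.15 at day 22, against 2.8 and 2.52 at day 15 (3.69 ± 0.37, adjusted p = 3.61e-05). The membrane mucin MUC1 had 7.51 and 7.07 at day 22, against 4.93 and 5.16 at day 15 (2.25 ± 0.26, adjusted p = 1.25e-04). The gel-forming airway mucins MUC5AC (0.48 ± 0.24) and MUC5B (0.15 ± 0.15) and the goblet cell factor SPDEF (0.067 ± 0.18) did not pass. MUC2, the gel-forming mucin of the intestine, rose, with 3.44 and 3.71 at day 22, against 2.1 and 1.98 at day 15.

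The list of liver plasma proteins had 17 of 25 members higher and 0 lower, the coagulation list 12 of 23 higher and 0 lower, and the apolipoprotein list 8 of 16 higher and 1 lower. Median differences were 2.13, 1.13 and 1.15. Without day 15 B or day 22 C 5 apolipoprotein and lipid export genes were higher. SERPINA1, which encodes an inhibitor of neutrophil elastase, had 9.78 and 9.84 at day 22, against 3.35 and 4.19 at day 15 (6.04 ± 0.25, adjusted p = 8.38e-08). The plasma protein precursor gene AMBP had 8.37 and 9.23 at day 22, against 3.13 and 3.69 at day 15 (5.39 ± 0.33, adjusted p = 1.17e-06). The transthyretin gene TTR had 12.13 and 12.24 at day 22, against 8.41 and 9.32 at day 15 (3.32 ± 0.34, adjusted p = 4.36e-05). The transferrin gene TF had 6.13 and 7.2 at day 22, against 2.42 and 3.27 at day 15 (3.82 ± 0.47, adjusted p = 1.71e-04). All 3 fibrinogen chain genes rose, at 6.88 ± 0.44 for FGA, 4.74 ± 0.51 for FGB and 5.94 ± 0.28 for FGG, and they lie side by side on chromosome 4. ALB and AFP are also neighbours on that chromosome. FGB was already unequal at day 15, with 5.37 on B and 7.61 on C. Tissue factor gene F3, which starts clotting, had 8.39 and 8.36 at day 22, against 5.68 and 5.51 at day 15 (2.78 ± 0.20, adjusted p = 2.96e-06). Prothrombin gene F2 rose by 1.61 ± 0.35, but not without day 22 C (1.08, adjusted p = 0.0738). APOB, the structural protein of low-density lipoproteins, had 8.57 and 9.69 at day 22, against 2.81 and 3.67 at day 15 (5.89 ± 0.43, adjusted p = 3.18e-06). The fatty acid binder FABP1 had 6.88 and 8.6 at day 22, against 2.86 and 2.87 at day 15 (4.87 ± 0.52, adjusted p = 6.02e-05). LCAT, which esterifies plasma cholesterol, was the member lower (-0.88 ± 0.19, adjusted p = 0.00728), and it lost the call without day 22 A (-0.79, adjusted p = 0.0564).

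Transcription factors of gut and liver followed in part, with 9 of 20 higher, 0 lower and a median difference of 0.69. ONECUT1 had 8.61 and 8.19 at day 22, against 5.24 and 4.61 at day 15 (3.48 ± 0.25, adjusted p = 2.96e-06). ONECUT2 had 5.67 and 6.49 at day 22, against 2.2 and 2.28 at day 15 (3.84 ± 0.26, adjusted p = 2.07e-06). Both are factors of liver and pancreas. PROX1 (2.46 ± 0.26) and HHEX (2.14 ± 0.32), factors of early liver, and the nuclear receptors NR5A2 (2.44 ± 0.37) and PPARG (2.38 ± 0.47) rose. ISX, an intestinal homeobox gene, had 5.61 and 6.81 at day 22, against 2.94 and 3.09 at day 15 (3.2 ± 0.39, adjusted p = 1.59e-04). The hindgut factor CDX2 did not pass (0.74 ± 0.56, adjusted p = 0.44) and had 4.95 and 6.83 at day 22, against 4.64 and 5.66 at day 15, and neither did GATA4 (0.49 ± 0.36). The call of HNF4G (1.33 ± 0.32) was lost without day 15 C (1.24, adjusted p = 0.079), without day 22 C (0.74, adjusted p = 0.0987) and in the fit of the 4 arrays alone (1.33, adjusted p = 0.0659). CREB3L3 (2.15 ± 0.48) lost it without day 22 C (1.71, adjusted p = 0.08). RFX6, an endodermal factor outside the rule for named genes and chosen after its values were seen, went the other way, with 3.64 and 5.09 at day 22, against 7.1 and 7.81 at day 15 (-3.09 ± 0.74, adjusted p = 0.0121). The call of RFX6 was lost without day 15 C (-2.73, adjusted p = 0.0911) and without day 22 A (-2.36, adjusted p = 0.106).

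The intestine and stomach list had 21 of 26 members higher, 0 lower and a median difference of 2.05. TFF1, a gastric trefoil peptide, had 8.78 and 8.98 at day 22, against 3.08 and 2.27 at day 15 (6.2 ± 0.46, adjusted p = 3.80e-06). CTSE, an aspartic protease of the stomach, had 9.05 and 9.11 at day 22, against 3.18 and 3.6 at day 15 (5.69 ± 0.39, adjusted p = 2.12e-06). VSIG1, an adhesion gene of gastric epithelium, had 10.3 and 10.18 at day 22, against 5.74 and 6.32 at day 15 (4.21 ± 0.44, adjusted p = 4.96e-05). Some members were uneven between the day 22 arrays. The brush border protease MEP1A had 7.05 and 8.53 at day 22, against 1.95 and 2.28 at day 15 (5.68 ± 0.50, adjusted p = 1.40e-05). REG4, a secreted lectin-like protein, had 5.12 and 6.53 at day 22, against 1.5 and 1.58 at day 15 (4.29 ± 0.44, adjusted p = 4.51e-05). The microvillar protein VIL1 rose by 1.82 ± 0.25. CDH17, an intestinal cadherin, had 7.92 and 9.28 at day 22, against 5.52 and 7.15 at day 15 (2.26 ± 0.53, adjusted p = 0.011). Its call was lost without day 15 B (1.44, adjusted p = 0.112), without day 22 C (1.58, adjusted p = 0.114) and in the fit of the 4 arrays alone (2.26, adjusted p = 0.067).

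Lung transcription factors changed in both directions, with 11 of 29 higher, 9 lower and a median difference of 0.17. The epithelial ETS factor EHF had 7.01 and 6.26 at day 22, against 3.24 and 3.18 at day 15 (3.43 ± 0.26, adjusted p = 4.64e-06). KLF5 had 8.99 and 9.09 at day 22, against 7.0 and 6.68 at day 15 (2.2 ± 0.22, adjusted p = 3.27e-05). CEBPD rose as well (2.45 ± 0.20, adjusted p = 7.56e-06). SOX2, which marks proximal lung, had 6.28 and 5.9 at day 22, against 8.32 and 7.69 at day 15 (-1.92 ± 0.36, adjusted p = 0.00288). MYCN, a factor of distal tip growth in the mouse lung, had 3.86 and 4.16 at day 22, against 5.41 and 5.48 at day 15 (-1.43 ± 0.20, adjusted p = 4.89e-04). The distal factor SOX9 (0.28 ± 0.23), FOXP2 (0.18 ± 0.38) and GATA6 (7.33 and 7.51 at day 22, against 7.26 and 7.57 at day 15) did not pass. Of the 6 Iroquois homeobox genes, which pattern embryonic tissues, 4 fell, while IRX4 (-0.12 ± 0.20) and IRX6 (-0.080 ± 0.24) lay near the floor and did not pass. IRX2 had 3.75 and 3.75 at day 22, against 6.49 and 6.86 at day 15 (-2.93 ± 0.19, adjusted p = 1.67e-06). IRX5 had 4.16 and 3.44 at day 22, against 6.08 and 5.97 at day 15 (-2.23 ± 0.24, adjusted p = 5.76e-05). Their neighbours IRX1, next to IRX2 on chromosome 5, and IRX3, next to IRX5 on chromosome 16, fell too (-1.84 ± 0.23 for IRX1, -1.82 ± 0.40 for IRX3). The Iroquois genes other than IRX2 and IRX5 were added after their values were seen. The call of IRX3 was lost without day 15 B (-1.67, adjusted p = 0.0598). Also added in that way were the developmental factors ISL1, with 3.55 and 3.58 at day 22, against 6.86 and 7.16 at day 15 (-3.45 ± 0.24, adjusted p = 2.12e-06), and SOX5, with 3.75 and 3.09 at day 22, against 6.85 and 6.35 at day 15 (-3.19 ± 0.36, adjusted p = 8.72e-05). The increases of CEBPA (1.49 ± 0.45, adjusted p = 0.0381) and ELF3 (0.94 ± 0.22, 0.00973) depended on single arrays. CEBPA lost its call without day 15 B (0.78, adjusted p = 0.326), without day 22 C (0.86, adjusted p = 0.309) and with the 4 arrays alone (1.49, adjusted p = 0.144). ELF3 lost it without day 15 C (0.82, adjusted p = 0.0836) and without day 22 C (0.71, adjusted p = 0.0983).

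**Figure D3:**
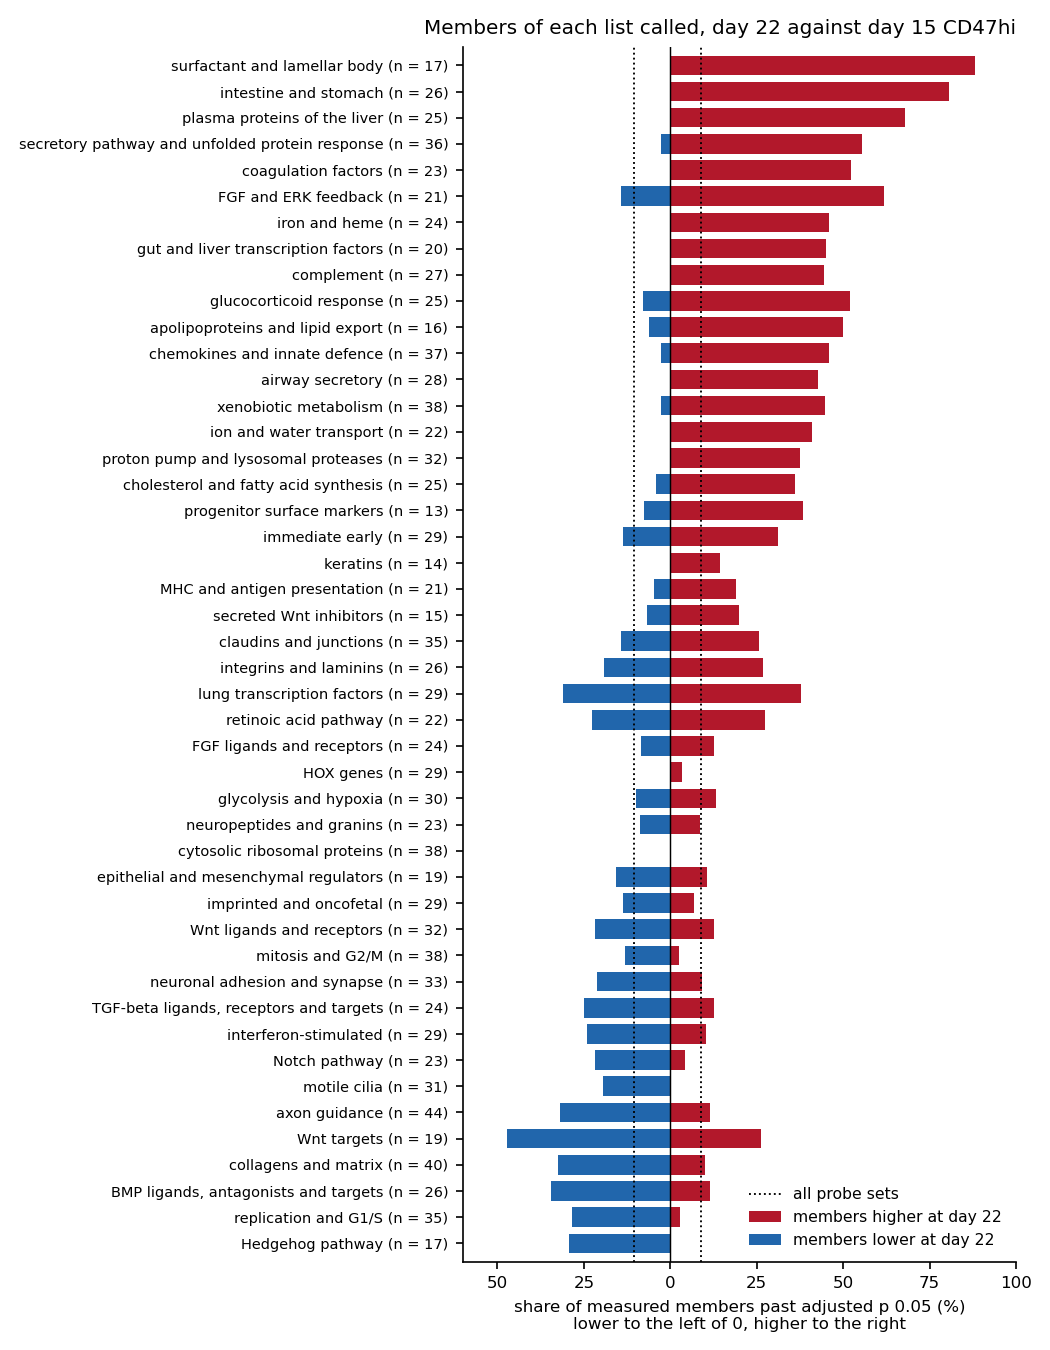
Share of each list's measured members called higher (to the right of 0) or lower (to the left) at day 22 against day 15 CD47hi, in percent, for 46 lists, with the number measured beside each name and dotted lines at the 8.95% higher and 10.6% lower over all probe sets. Surfactant, intestine and liver lists reach farthest to the right, and Wnt targets farthest to the left.

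Wnt targets held both lower and higher members. Of 19 measured Wnt targets 9 fell and 5 rose, with a median difference of -0.71. LEF1, a nuclear effector of the pathway and itself a target, had 2.33 and 2.95 at day 22, against 7.35 and 7.42 at day 15 (-4.74 ± 0.24, adjusted p = 2.78e-07). AXIN2, a feedback inhibitor, had 3.97 and 3.52 at day 22, against 6.15 and 6.47 at day 15 (-2.56 ± 0.29, adjusted p = 8.59e-05). LGR5, an R-spondin receptor, had 1.65 and 2.01 at day 22, against 6.35 and 5.86 at day 15 (-4.28 ± 0.38, adjusted p = 1.44e-05). Its relative LGR4 rose, with 7.59 and 7.89 at day 22, against 3.96 and 4.33 at day 15 (3.59 ± 0.21, adjusted p = 6.89e-07). The receptor-removing ligases RNF43 (-1.66 ± 0.21) and ZNRF3 (-1.85 ± 0.15) and the inhibitor NKD1 (-2.25 ± 0.28) fell. The secreted feedback enzyme NOTUM did not pass (-0.29 ± 0.21), and SP5 (-0.71 ± 0.18) lost its call without day 15 B (-0.68, adjusted p = 0.0895), without day 15 C (-0.74, adjusted p = 0.0659) and without day 22 C (-0.66, adjusted p = 0.0955). The targets that rose include MYC, with 5.65 and 5.52 at day 22, against 3.97 and 3.62 at day 15 (1.79 ± 0.27, adjusted p = 7.43e-04). DKK1, itself a secreted inhibitor, had 8.17 and 7.69 at day 22, against 3.28 and 3.31 at day 15 (4.64 ± 0.35, adjusted p = 4.02e-06).

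Ligands, receptors and inhibitors of Wnt changed one by one. Of 32 ligands and receptors 4 rose (12.5%) and 7 fell (21.9%), beside 8.95% and 10.6% of all probe sets (median -0.011). Of 15 genes listed as inhibitors, most of them secreted, 3 rose (20%) and 1 fell (6.67%), with a median of -0.015. Without day 15 B 1 ligand or receptor was higher, and 2 without day 15 C or day 22 A. RSPO3, which encodes an R-spondin that amplifies Wnt signals, had 2.4 and 2.49 at day 22, against 4.76 and 5.9 at day 15 (-2.88 ± 0.30, adjusted p = 5.16e-05). The receptor FZD2 had 4.65 and 4.72 at day 22, against 7.57 and 7.1 at day 15 (-2.65 ± 0.20, adjusted p = 3.53e-06). WNT11 had 2.58 and 2.99 at day 22, against 4.35 and 4.83 at day 15 (-1.8 ± 0.26, adjusted p = 4.66e-04). FZD5 was higher (1.25 ± 0.19, adjusted p = 6.61e-04). WNT5A did not pass (0.72 ± 0.26, adjusted p = 0.0787) but did in the fit of the 4 arrays alone (0.72, adjusted p = 0.0483). WNT7B was lower (-1.54 ± 0.45, adjusted p = 0.0316), and leaving out any 1 of the 4 arrays ended that call (-1.36 to -1.72, adjusted p = 0.078 to 0.161). The inhibitors SFRP5, with 6.46 and 6.4 at day 22, against 2.23 and 2.45 at day 15 (4.09 ± 0.18, adjusted p = 9.84e-08), WIF1 (2.93 ± 0.24) and DKK1 rose together. The member lower was KREMEN1, a membrane receptor for DKK proteins (-1.76 ± 0.24, adjusted p = 3.55e-04), and not a secreted protein.

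Most measured genes of FGF feedback rose. Of 21 genes of FGF and ERK feedback 13 rose and 3 fell, with a median of 0.99. The members lower were PHLDA1 (-1.31, adjusted p = 0.00113), EGR3 (-0.88, adjusted p = 0.00733) and EPHA4 (-0.89, adjusted p = 0.0293). Fewer members of this list were lower without day 15 C or without day 22 C. DUSP6, a phosphatase that acts on ERK, had 9.1 and 8.79 at day 22, against 4.61 and 4.95 at day 15 (17.9-fold, 4.16 ± 0.18, adjusted p = 9.64e-08). SPRY4, a Sprouty inhibitor, had 5.5 and 6.11 at day 22, against 2.26 and 2.33 at day 15 (3.51 ± 0.25, adjusted p = 2.91e-06). ETV4, an ETS factor, had 5.55 and 5.98 at day 22, against 2.32 and 2.57 at day 15 (3.32 ± 0.28, adjusted p = 9.34e-06). Their relatives SPRY2 (2.4 ± 0.15) and ETV5 (2.83 ± 0.22) and the phosphatases DUSP4 (3.19 ± 0.20) and DUSP5 (3.56 ± 0.33) rose too. Of 24 FGF ligands and receptors 3 rose (12.5%) and 2 fell (8.33%), with a median of 0.11, near the 8.95% and 10.6% of all probe sets. FGFR3 had 6.07 and 6.46 at day 22, against 4.28 and 4.67 at day 15 (1.79 ± 0.18, adjusted p = 4.36e-05), and the ligand gene FGF19 was higher (1.02 ± 0.20, adjusted p = 0.00424). FGF9 (-0.80 ± 0.30), FGF10 (0.32 ± 0.15), FGF20 (0.39 ± 0.18) and FGFR4 (0.12 ± 0.34) did not pass. FGFR2, the receptor that epithelium uses for FGF10, was lower (-0.62 ± 0.19, adjusted p = 0.0402), a call lost without day 15 B (-0.55, adjusted p = 0.193), without day 15 C (-0.69, adjusted p = 0.101), without day 22 C (-0.42, adjusted p = 0.282) and with the 4 arrays alone (-0.62, adjusted p = 0.0752).

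Among BMP genes, 3 of 26 rose (11.5%) and 9 fell (34.6%), with a median of -0.26. Among TGF-beta genes 3 of 24 rose (12.5%) and 6 fell (25%), with a median of -0.28. Over all probe sets 8.95% rose and 10.6% fell. Without day 15 C or day 22 A 5 BMP genes were lower. The ligands split: BMP2 had 6.64 and 6.97 at day 22, against 3.68 and 4.27 at day 15 (2.83 ± 0.24, adjusted p = 8.98e-06), while BMP5 (-2.69 ± 0.48, adjusted p = 0.00208) and BMP7 (-1.4 ± 0.28, adjusted p = 0.00413) fell. BMP4 was lower (-1.12 ± 0.28, adjusted p = 0.0149), but not without day 15 B (-1.12, adjusted p = 0.0707), day 15 C (-1.11, adjusted p = 0.0757) or day 22 A (-0.92, adjusted p = 0.11). The antagonist FST, which traps activins and BMPs, had 4.43 and 4.0 at day 22, against 6.93 and 6.43 at day 15 (-2.47 ± 0.25, adjusted p = 3.89e-05), and the receptor BMPR2 fell (-1.28 ± 0.16, adjusted p = 2.04e-04). The BMP response genes ID1 (0.11 ± 0.22) and SMAD6 (-0.26 ± 0.21) did not pass. TGFB3 had 3.36 and 3.45 at day 22, against 6.72 and 6.45 at day 15 (-3.17 ± 0.30, adjusted p = 2.34e-05). TGFB2 was lower (-0.85 ± 0.26, adjusted p = 0.0395), but not without day 15 B (-0.69, adjusted p = 0.219), day 15 C (-1.0, adjusted p = 0.0738) or day 22 C (-0.64, adjusted p = 0.247). The receptors TGFBR2 (1.13 ± 0.21) and TGFBR3 (2.13 ± 0.37) and the matricellular CCN2 (1.73 ± 0.25, adjusted p = 4.74e-04) rose, and SKIL, an inhibitor induced by the pathway, fell (-1.43 ± 0.20).

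In the Hedgehog list, 0 of 17 rose and 5 fell, with a median of -0.23, and 3 were lower without day 15 B or day 22 C. The ligand gene SHH had 5.68 and 6.19 at day 22, against 9.68 and 9.61 at day 15 (-3.71 ± 0.38, adjusted p = 3.89e-05), the largest difference of the list. The signal transducer SMO (-1.03 ± 0.20) and the pathway inhibitor SUFU (-0.83 ± 0.16) fell. PTCH1, receptor and target, was lower (-0.75 ± 0.18, adjusted p = 0.0133), but not without day 15 B (-0.63, adjusted p = 0.108) or day 22 C (-0.56, adjusted p = 0.125). The targets GLI1 (2.72 at day 22) and HHIP (1.32 at day 22) lay near the floor and did not pass. In the Notch list, 1 of 23 rose and 5 fell with a median of -0.077, and 3 were lower without day 15 B. JAG1, a ligand, rose, with 9.05 and 9.3 at day 22, against 6.8 and 6.82 at day 15 (2.36 ± 0.19, adjusted p = 5.86e-06). The ligand DLL1 (-1.63 ± 0.20, adjusted p = 1.85e-04), the receptor NOTCH3 (-1.4 ± 0.16, adjusted p = 7.98e-05) and the target HES1 (-1.22 ± 0.21, adjusted p = 0.0019) fell. HEY1 did not pass (0.80 ± 0.30, adjusted p = 0.0858) but did without day 15 C (1.2, adjusted p = 0.0343).

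Retinoic acid genes split, with 6 of 22 higher, 5 lower and a median of -0.11, with 2 lower without day 15 B and 3 without day 15 C or day 22 A. The enzyme gene ALDH1A1 had 8.97 and 8.92 at day 22, against 5.34 and 6.63 at day 15 (2.96 ± 0.56, adjusted p = 0.00311), while ALDH1A3, which makes the same product, fell (-1.03 ± 0.22, adjusted p = 0.00561), but not without day 15 B (-0.92, adjusted p = 0.0521). Carrier RBP4 rose, with 8.78 and 10.28 at day 22, against 4.68 and 5.39 at day 15 (4.49 ± 0.53, adjusted p = 1.22e-04). The uptake receptor STRA6 (-1.16 ± 0.15, adjusted p = 3.00e-04) and the intracellular binder CRABP2 (-1.73 ± 0.21, adjusted p = 1.43e-04) fell. The targets RARB (-0.64 ± 0.23, adjusted p = 0.0707) and CYP26A1 (-0.37 ± 0.17) did not pass, and RARB did with array weights (-0.64, adjusted p = 0.0446). DHRS3 rose (0.74 ± 0.23, adjusted p = 0.0455), but leaving out any 1 of the 4 arrays ended the call (0.61 to 0.86, adjusted p = 0.0869 to 0.238).

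Of genes of the glucocorticoid response, 13 of 25 rose and 2 fell, with a median of 1.18. Their receptor NR3C1 had 6.86 and 6.54 at day 22, against 4.93 and 4.64 at day 15 (1.91 ± 0.22, adjusted p = 1.14e-04). HSD11B2, the enzyme that inactivates cortisol, had 3.21 and 3.35 at day 22, against 5.49 and 6.14 at day 15 (-2.54 ± 0.25, adjusted p = 3.01e-05). TAT, a tyrosine-degrading enzyme gene induced by glucocorticoids in liver, had 8.63 and 7.98 at day 22, against 2.2 and 2.49 at day 15 (62.3-fold, 5.96 ± 0.27, adjusted p = 1.04e-07). FKBP5, which encodes a chaperone partner of the receptor, had 7.51 and 6.82 at day 22, against 4.05 and 4.35 at day 15 (2.96 ± 0.22, adjusted p = 3.23e-06). DUSP1 (2.02 ± 0.20), ERRFI1 (2.0 ± 0.17) and the metallothionein MT1F (1.93 ± 0.15) rose, and MT1F shares sequence with other metallothioneins, so its signal is uncertain. The components of the media are not given in the sources used here.

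**Figure D4:**
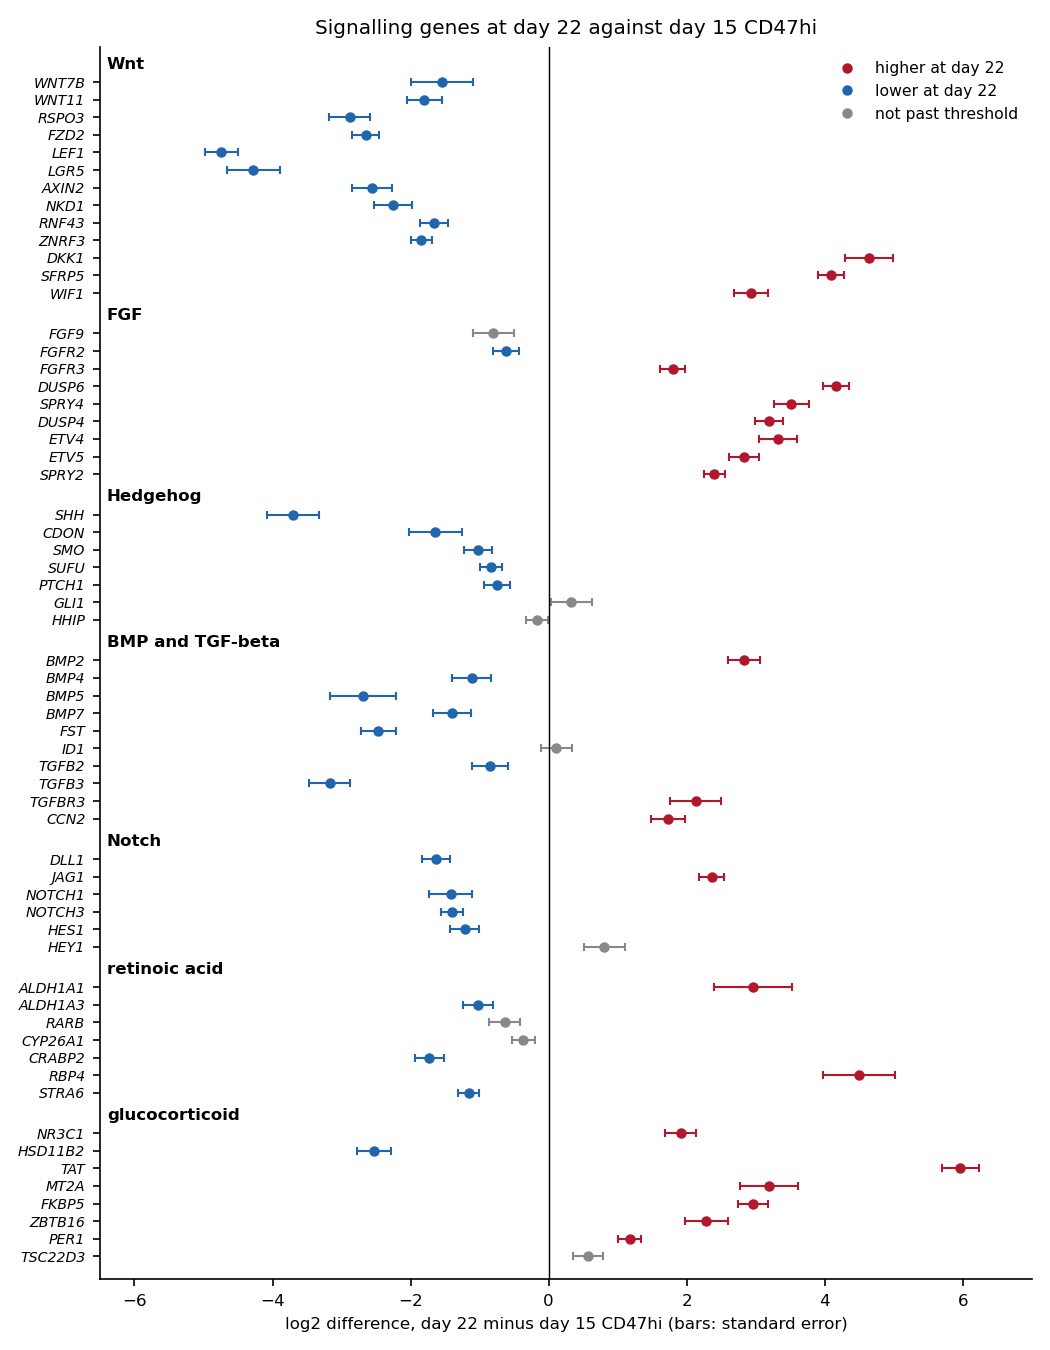
Log2 difference, day 22 minus day 15 CD47hi (horizontal axis), for signalling genes grouped by pathway, with bars for limma's standard error and colours for higher, lower and not past the threshold; some genes were added after their values were seen. The plotted feedback genes of FGF are members that rose and lie to the right, DUSP6 at 4.16. The 3 feedback members that fell are not plotted. Wnt genes lie on both sides, LEF1 at -4.74 and DKK1 at 4.64, as do BMP and retinoic acid genes.

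Secretory machinery genes rose in many cases. Of 36 genes of the secretory pathway and unfolded protein response 20 rose and 1 fell, with a median of 0.52. Without day 15 C 12 were higher and without day 22 C 13. XBP1, a transcription factor of that response, had 9.5 and 9.62 at day 22, against 7.65 and 7.53 at day 15 (1.97 ± 0.18, adjusted p = 1.93e-05). The secretory factor CREB3L1 had 6.94 and 7.42 at day 22, against 4.55 and 4.91 at day 15 (2.45 ± 0.21, adjusted p = 1.26e-05). The chaperone HSPA5 (1.02 ± 0.15), the degradation factor HERPUD1 (1.75 ± 0.16), the isomerase PDIA5 (1.86 ± 0.20) and the retrieval receptor KDELR3 (1.63 ± 0.18) rose too. The stress sensor ERN2 did not pass (0.23 ± 0.30). Of 32 proton pump and lysosomal protease genes 12 rose and 0 fell (median 0.32). ATP6V0D2, a proton pump subunit, had 6.07 and 8.19 at day 22, against 1.71 and 1.68 at day 15 (5.43 ± 0.57, adjusted p = 5.06e-05). CTSD, a lysosomal protease, had 10.29 and 10.31 at day 22, against 9.43 and 9.4 at day 15 (0.89 ± 0.19, adjusted p = 0.00587).

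Transport and iron lists had no lower member. Of 22 ion and water transport genes 9 rose and 0 fell (median 0.59). SCNN1A, a subunit of the epithelial sodium channel, had 8.76 and 8.44 at day 22, against 5.11 and 4.95 at day 15 (3.57 ± 0.20, adjusted p = 4.85e-07). AQP4, a water channel, had 8.09 and 7.34 at day 22, against 2.67 and 3.5 at day 15 (4.63 ± 0.34, adjusted p = 3.18e-06). The carbonic anhydrase gene CA2 had 7.06 and 8.48 at day 22, against 3.3 and 2.89 at day 15 (4.67 ± 0.44, adjusted p = 2.33e-05). The subunit SCNN1B did not pass (0.35 ± 0.26). SCNN1G (1.22 ± 0.34) and the chloride channel CFTR (1.17 ± 0.32) passed. SCNN1G lost its call on leaving out any 1 of the 4 arrays (1.13 to 1.31, adjusted p = 0.0779 to 0.136). CFTR lost it without day 15 B (0.73, adjusted p = 0.215), without day 22 C (0.67, adjusted p = 0.217) and with the 4 arrays alone (1.17, adjusted p = 0.117). Of 24 iron and heme genes 11 rose and 0 fell (median 0.70), with 7 higher without day 15 B. SLC40A1, the iron exporter, had 8.9 and 8.45 at day 22, against 6.67 and 6.49 at day 15 (2.09 ± 0.19, adjusted p = 1.62e-05), and the iron reductases CYBRD1 (2.54 ± 0.21, adjusted p = 8.81e-06) and STEAP4 (2.26 ± 0.20, adjusted p = 1.60e-05) rose.

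Complement and chemokine lists held more higher than lower members. Complement had 12 of 27 higher and 0 lower (median 0.63), chemokines and innate defence 17 of 37 higher and 1 lower (median 0.49), and MHC and antigen presentation 4 of 21 higher and 1 lower (median 0.079). Without day 15 C 0 members of the MHC list were higher. C4BPA, which encodes a complement inhibitor of plasma, had 6.91 and 6.32 at day 22, against 1.99 and 1.65 at day 15 (4.8 ± 0.29, adjusted p = 1.03e-06). CD55, a complement shield of the cell surface, had 11.04 and 10.8 at day 22, against 8.55 and 8.77 at day 15 (2.26 ± 0.14, adjusted p = 1.33e-06). The central component C3 had 5.4 and 5.56 at day 22, against 2.5 and 2.48 at day 15 (2.99 ± 0.30, adjusted p = 3.29e-05). CCL20, a chemokine gene of epithelium, had 7.41 and 6.96 at day 22, against 3.74 and 3.84 at day 15 (3.39 ± 0.24, adjusted p = 2.48e-06). The neutrophil chemokine gene CXCL8 had 6.83 and 6.17 at day 22, against 2.26 and 3.14 at day 15 (3.8 ± 0.30, adjusted p = 6.99e-06). DUOX1, an oxidase of airway cells, had 5.69 and 5.34 at day 22, against 2.26 and 2.35 at day 15 (3.21 ± 0.31, adjusted p = 3.09e-05). CD74, the invariant chain of MHC class II, was the member lower (-2.12 ± 0.45), a call lost without day 22 A (-1.76, adjusted p = 0.0587). Interferon-stimulated genes had 3 of 29 higher (10.3%, beside 8.95% of all probe sets) and 7 lower (24.1%, beside 10.6%), with a median of -0.16. Fewer were lower without day 15 B, and 4 were with the 4 arrays alone. IFI44L had 2.08 and 1.78 at day 22, against 5.07 and 4.13 at day 15 (-2.66 ± 0.53, adjusted p = 0.0042). DDX60 had 2.29 and 2.33 at day 22, against 4.46 and 3.8 at day 15 (-1.82 ± 0.21, adjusted p = 1.04e-04).

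Xenobiotic metabolism had 17 of 38 members higher and 1 lower, with a median of 0.84. NQO1, a quinone reductase, had 8.48 and 8.67 at day 22, against 4.52 and 4.43 at day 15 (4.1 ± 0.24, adjusted p = 7.68e-07). The bile acid exporter ABCC3 had 6.93 and 7.16 at day 22, against 2.53 and 3.4 at day 15 (4.08 ± 0.30, adjusted p = 3.26e-06). CYP1A1, a target of the aryl hydrocarbon receptor, had 8.28 and 8.46 at day 22, against 5.91 and 6.49 at day 15 (2.17 ± 0.32, adjusted p = 6.35e-04). GSTA1 (4.32 ± 0.47) and GSTA2 (5.02 ± 0.54) rose, and these near-identical glutathione transferase genes may share signal. Cholesterol and fatty acid synthesis had 9 of 25 higher and 1 lower (median 0.47), with IDI1 (1.36 ± 0.17, adjusted p = 1.75e-04), MSMO1 (1.34 ± 0.17, adjusted p = 2.25e-04) and FASN (1.27 ± 0.16, adjusted p = 1.90e-04) higher. Glycolysis and hypoxia had 4 of 30 higher (13.3%) and 3 lower (10%), beside 8.95% and 10.6% of all probe sets (median -0.031). NDRG1, a gene induced by low oxygen, had 8.2 and 8.84 at day 22, against 5.78 and 5.95 at day 15 (2.65 ± 0.30, adjusted p = 8.65e-05). The glycolytic enzyme ENO2 had 4.58 and 5.12 at day 22, against 6.6 and 6.69 at day 15 (-1.79 ± 0.35, adjusted p = 0.00343).

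Matrix and guidance lists held more lower than higher members. Of 40 collagen and matrix genes 13 fell (32.5%, beside 10.6% of all probe sets) and 4 rose (10%, beside 8.95%), with a median of -0.22. Fewer were higher without day 15 C or day 22 C. COL1A1 had 5.35 and 5.37 at day 22, against 8.11 and 7.79 at day 15 (-2.59 ± 0.15, adjusted p = 7.76e-07). COL18A1, a basement membrane collagen, had 5.09 and 5.21 at day 22, against 6.97 and 6.92 at day 15 (-1.79 ± 0.19, adjusted p = 4.98e-05). POSTN, a matrix protein of mesenchyme, had 1.32 and 2.2 at day 22, against 4.13 and 5.62 at day 15 (-3.11 ± 0.42, adjusted p = 3.49e-04). LUM, a proteoglycan gene of connective tissue, and TNC, the tenascin C gene, rose. LUM had 6.77 and 7.61 at day 22, against 3.49 and 3.46 at day 15 (3.72 ± 0.42, adjusted p = 9.11e-05). TNC had 6.96 and 6.19 at day 22, against 3.34 and 3.35 at day 15 (3.23 ± 0.32, adjusted p = 3.33e-05). Of 26 integrins and laminins 7 rose and 5 fell (median 0.27). ITGA1, a collagen receptor subunit, rose (2.4 ± 0.18, adjusted p = 4.19e-06), and ITGA9 (-2.73 ± 0.30, adjusted p = 7.07e-05) and LAMA1, an embryonic laminin chain (-1.84 ± 0.22, adjusted p = 1.44e-04), fell. Of 44 axon guidance genes 14 fell (31.8%) and 5 rose (11.4%), with a median of -0.49. Fewer were lower without day 15 B, day 15 C or day 22 C, and fewer were higher without day 15 B. The semaphorin gene SEMA3D had 4.35 and 4.78 at day 22, against 8.05 and 7.5 at day 15 (-3.21 ± 0.26, adjusted p = 7.00e-06). The ephrin gene EFNA3 had 4.38 and 3.68 at day 22, against 6.43 and 6.31 at day 15 (-2.34 ± 0.30, adjusted p = 2.12e-04), while the semaphorin coreceptor NRP1 rose (1.68 ± 0.18, adjusted p = 5.65e-05).

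Among 35 genes of claudins and junctions 9 rose and 5 fell (median 0.32), with 5 higher without day 15 B. CLDN1 had 8.2 and 8.67 at day 22, against 5.0 and 4.96 at day 15 (3.46 ± 0.23, adjusted p = 1.92e-06). The gap junction gene GJB1 had 5.81 and 5.93 at day 22, against 1.66 and 2.06 at day 15 (4.01 ± 0.34, adjusted p = 9.54e-06). The desmosome gene DSP, which was lower, had 8.3 and 8.65 at day 22, against 10.62 and 10.51 at day 15 (-2.09 ± 0.22, adjusted p = 6.07e-05). CLDN18, of lung and stomach, was higher (2.1 ± 0.49), but not without day 15 B (1.78, adjusted p = 0.0847) or day 22 A (1.65, adjusted p = 0.088). CLDN2 (0.42 ± 0.17), CLDN4 (0.32 ± 0.17) and CLDN6 (-0.096 ± 0.13) did not pass. The N-cadherin gene CDH2 had 7.67 and 8.16 at day 22, against 10.15 and 9.85 at day 15 (-2.08 ± 0.36, adjusted p = 0.00187). The intermediate filament gene VIM averaged 6.75 at day 22, against 9.73 at day 15 (-2.99 ± 0.52, adjusted p = 0.0019). Of 19 epithelial and mesenchymal regulators 2 rose (10.5%) and 3 fell (15.8%), beside 8.95% and 10.6% of all probe sets (median 0.061). The repressor ZEB2 did not pass (2.58 and 2.38 at day 22, against 2.58 and 2.38 at day 15). ZEB1 was lower (-0.83 ± 0.26), but not without day 15 B (-0.51, adjusted p = 0.315), day 22 A (-0.77, adjusted p = 0.161) or day 22 C (-0.89, adjusted p = 0.114), nor with the 4 arrays alone (-0.83, adjusted p = 0.066). Of 14 keratins 2 rose and 0 fell (median 0.30). KRT13 had 5.73 and 5.25 at day 22, against 2.03 and 2.0 at day 15 (3.48 ± 0.59, adjusted p = 0.0015). KRT20 (0.94 ± 0.28) lost its call without day 15 B (0.66, adjusted p = 0.255), without day 22 C (0.52, adjusted p = 0.299) and with the 4 arrays alone (0.94, adjusted p = 0.116). The simple keratins KRT7 (0.091 ± 0.31), KRT8 (0.18 ± 0.20), KRT18 (0.15 ± 0.14) and KRT19 (0.65 ± 0.32) did not pass, and KRT19 did with the 4 arrays alone (0.65, adjusted p = 0.0355).

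Of 33 genes of neuronal adhesion and synapse 3 rose (9.09%) and 7 fell (21.2%), beside 8.95% and 10.6% of all probe sets (median -0.13). In the fit of the 4 arrays alone 11 were lower. FAT3 (-4.65 ± 0.30), ANK2 (-4.44 ± 0.19), TENM3 (-2.98 ± 0.25) and DPP6 (-2.94 ± 0.25) fell, and the adhesion gene CNTN1 rose, with 5.39 and 4.92 at day 22, against 2.38 and 2.28 at day 15 (2.82 ± 0.33, adjusted p = 1.22e-04). Of 23 neuropeptides and granins 2 rose and 2 fell (median -0.028). That is 8.70% each way, near the 8.95% higher and 10.6% lower of all probe sets. NMU, the neuromedin U gene, had 10.27 and 9.55 at day 22, against 4.26 and 3.88 at day 15 (5.84 ± 0.28, adjusted p = 1.99e-07), while TAC3 fell (-1.74 ± 0.35, adjusted p = 0.00462). Of 13 progenitor surface markers 5 rose and 1 fell (median 0.45). DPP4, the CD26 antigen, had 8.0 and 9.26 at day 22, against 2.49 and 3.7 at day 15 (5.54 ± 0.42, adjusted p = 4.56e-06). The receptor KIT had 3.86 and 3.88 at day 22, against 6.0 and 6.64 at day 15 (-2.45 ± 0.43, adjusted p = 0.002).

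Cell cycle lists held more lower than higher members in the main fit. Replication and G1/S had 10 of 35 members lower (28.6%, beside 10.6% of all probe sets) and 1 higher (median -0.40). POLA1, a polymerase subunit, stood at -0.98 ± 0.18, adjusted p = 0.00251. Mitosis and G2/M had 5 of 38 lower (13.2%, beside 10.6% of all probe sets) and 1 higher (median -0.49), and the proliferation marker MKI67 did not pass (-0.43 ± 0.23, adjusted p = 0.25). BUB1B, a mitotic checkpoint gene, fell (-1.18 ± 0.24, adjusted p = 0.00511), while CENPE, a kinetochore motor, rose (1.72 ± 0.25, adjusted p = 6.22e-04). These counts depend on the setting: across 9 alternatives 1 to 14 replication genes and 1 to 12 mitosis genes were lower. Leaving out any 1 of the 4 arrays left 1 to 4 replication genes and 1 mitosis gene lower. Of 38 cytosolic ribosomal protein genes 0 passed by limma (median -0.11), and up to 5 were lower under an alternative (with an intensity trend and robust variances). HOX genes had 1 of 29 higher and 0 lower (median -0.059), and the single call, HOXC13 (0.41 ± 0.13), was lost on leaving out any 1 array (0.32 to 0.49, adjusted p = 0.076 to 0.245), with the 4 arrays alone (0.41, adjusted p = 0.116) and with an intensity trend (0.41, adjusted p = 0.0957). Immediate early genes had 9 of 29 higher and 4 lower (median 0.25), with 2 lower without day 22 C. KLF6 had 9.59 and 9.45 at day 22, against 7.17 and 7.34 at day 15 (2.26 ± 0.15, adjusted p = 1.63e-06). The orphan nuclear receptor gene NR4A2 had 6.01 and 5.54 at day 22, against 3.26 and 2.67 at day 15 (2.81 ± 0.23, adjusted p = 8.52e-06). The first responders FOS (0.48 ± 0.20), FOSB (-0.40 ± 0.22), JUN (-0.046 ± 0.19), JUNB (0.31 ± 0.25), EGR1 (-0.18 ± 0.22) and ATF3 (0.49 ± 0.17) did not pass. ATF3 passed with array weights (0.49, adjusted p = 0.0469).

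Imprinted and oncofetal genes had 2 of 29 higher (6.90%) and 4 lower (13.8%), beside 8.95% and 10.6% of all probe sets (median -0.13). Fewer were lower when day 22 A, day 15 B or day 15 C was left out. IGF2, the paternally expressed growth factor, had 6.23 and 6.36 at day 22, against 4.0 and 4.67 at day 15 (1.95 ± 0.25, adjusted p = 2.06e-04). SNRPN had 2.37 and 1.6 at day 22, against 4.45 and 4.52 at day 15 (-2.5 ± 0.21, adjusted p = 1.09e-05). HMGA2, an oncofetal chromatin protein, fell (-0.84 ± 0.17, adjusted p = 0.00398). Of 31 motile cilia genes 0 rose and 6 fell (19.4%, beside 10.6% of all probe sets), with a median of -0.14. The cilia regulator RFX3 had 5.53 and 5.06 at day 22, against 6.77 and 6.94 at day 15 (-1.56 ± 0.22, adjusted p = 4.95e-04). MYB, which acts in early ciliated cells, had 2.61 and 2.96 at day 22, against 4.73 and 4.8 at day 15 (-1.98 ± 0.30, adjusted p = 6.93e-04).

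Small RNA loci were named after their values were seen. Of 1097 miRNA loci 39 were higher (3.56%) and 19 lower (1.73%), and of 17649 protein-coding genes 10.6% were higher and 12.9% lower. Probe sets named for a miRNA measure RNA from the locus, not the mature molecule. MIR221 and MIR222, neighbours on chromosome X, were both higher. MIR221 had 5.75 and 5.56 at day 22, against 3.95 and 4.12 at day 15 (1.61 ± 0.19, adjusted p = 1.08e-04). MIR222 had 3.46 and 3.74 at day 22, against 2.23 and 1.92 at day 15 (1.53 ± 0.20, adjusted p = 2.82e-04). MIR23B and MIR27B, neighbours on chromosome 9, were both lower. MIR23B had 4.74 and 4.48 at day 22, against 6.34 and 5.79 at day 15 (-1.45 ± 0.24, adjusted p = 0.00138). MIR27B had 5.06 and 4.56 at day 22, against 5.8 and 5.49 at day 15 (-0.84 ± 0.24, adjusted p = 0.0281). The call of MIR27B was lost without day 15 B (-0.68, adjusted p = 0.183), without day 15 C (-0.99, adjusted p = 0.0546), without day 22 C (-0.59, adjusted p = 0.219) and with the 4 arrays alone (-0.84, adjusted p = 0.0533). Their mature 3′ arms from RefSeq (GRCh38.p14) are printed with the seed, bases 2 to 8, in capitals, since each pair of loci lies together and the first pair shares a seed.
miR-221-3p: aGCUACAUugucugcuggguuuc
miR-222-3p: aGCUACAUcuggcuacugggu
miR-23b-3p: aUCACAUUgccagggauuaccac
miR-27b-3p: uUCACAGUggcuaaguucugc
The seed GCUACAU is the same in miR-221-3p and miR-222-3p, and the seeds of miR-23b-3p and miR-27b-3p differ from each other.

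The other stages place these values. SFTPB stood at 3.23 at day 0, 3.11 at day 15, 11.85 at day 22, and 9.96 and 12.25 in the SCGB3A2- and SCGB3A2+ sorts of day 36. IRX2 stood at 5.06 at day 0, 6.68 at day 15, 3.75 at day 22, and 3.75 and 5.13 in the SCGB3A2- and SCGB3A2+ sorts of day 36, and the day 22 and SCGB3A2- means were the lowest. CRH stood at 2.01 at day 0, 7.77 at day 15, 2.09 at day 22, and 1.84 and 2.02 in the SCGB3A2- and SCGB3A2+ sorts of day 36, and day 15 was the one stage at which it was high. The Hedgehog ligand SHH stood at 2.97 at day 0, 9.64 at day 15, 5.94 at day 22, and 4.97 and 6.13 in the SCGB3A2- and SCGB3A2+ sorts of day 36. TAT stood at 2.73 at day 0, 2.34 at day 15, 8.3 at day 22, and 7.13 and 8.41 in the SCGB3A2- and SCGB3A2+ sorts of day 36. VIM stood at 7.42 at day 0, 9.73 at day 15, 6.75 at day 22, and 7.97 and 8.1 in the SCGB3A2- and SCGB3A2+ sorts of day 36. SULF1 stood at 5.08 at day 0, 3.27 at day 15, 9.71 at day 22, and 6.65 and 10.66 in the SCGB3A2- and SCGB3A2+ sorts of day 36, with the highest means at day 22 and in the SCGB3A2+ sort. ATP6V0D2 stood at 1.72 at day 0, 1.7 at day 15, 7.13 at day 22, and 2.32 and 2.01 in the SCGB3A2- and SCGB3A2+ sorts of day 36, a gene whose level was high at day 22 alone. These are descriptions of group means, and day 22 shares its arrays with the comparison above.

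**Figure D5:**
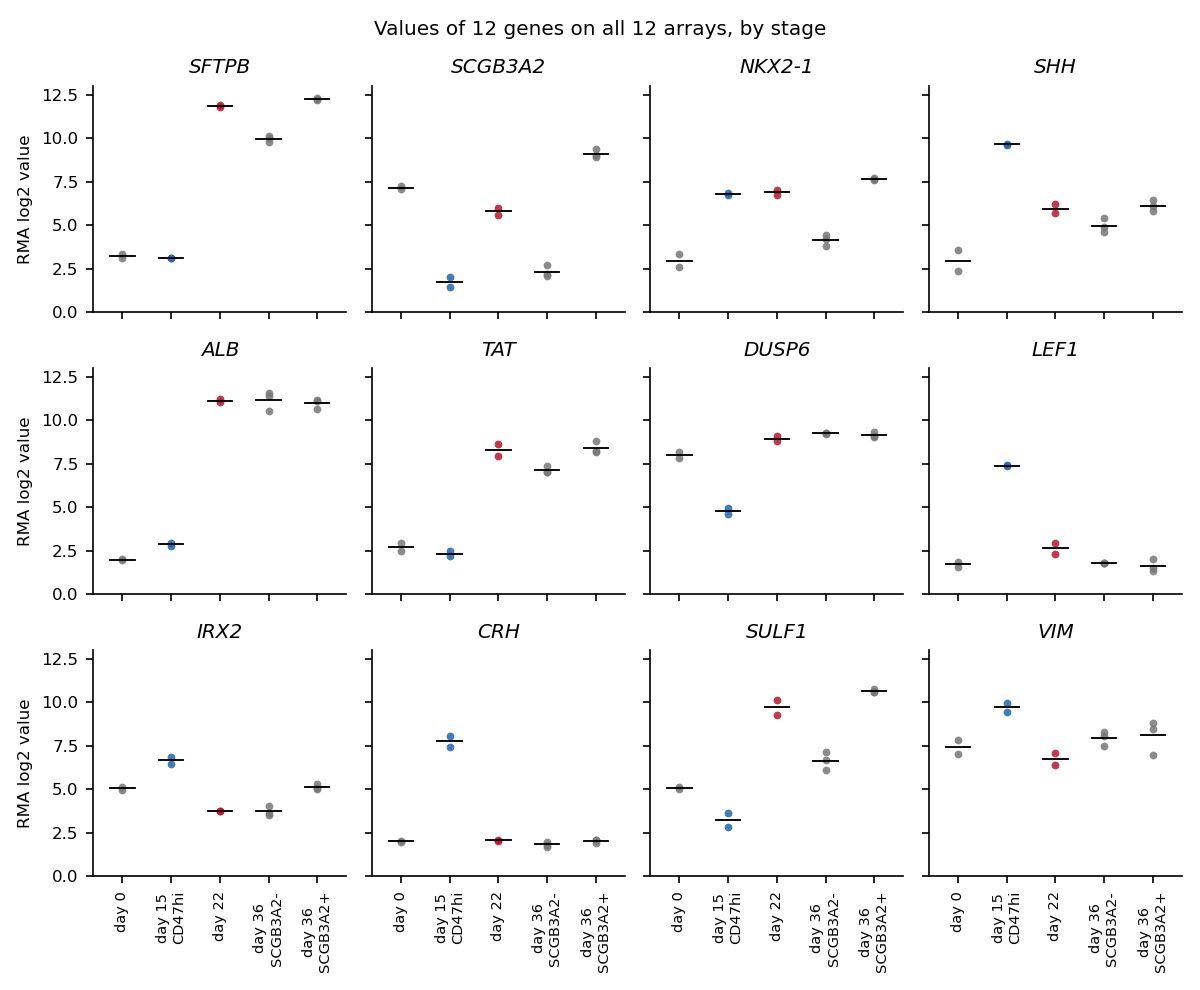
RMA log2 values (vertical axis) of 12 genes on all 12 arrays, ordered by stage from day 0 through day 15 CD47hi and day 22 to the SCGB3A2- and SCGB3A2+ sorts of day 36, with 1 point per array and a line at each group mean. CRH is high at day 15 alone (7.45 and 8.09), and ALB stays high from day 22 on.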

How the data were processed

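RNA from RUES2 cells was extracted with a column kit and biotin-labelled for expression arrays, per the labels' protocols. The deposited values are log2 expression values that the authors made with RMA, using affy 1.36.1 in R 2.15.1, per the submitters' processing notes; how probe sets were summarised further is not given in the sources used here. Symbols came from the platform annotation: 22458 of 23786 probe sets had 1 symbol, 0 had several and 1328 had none. Arrays were grouped by their titles, and the 2 day 22 arrays were compared with the 2 day 15 CD47hi arrays. One limma 3.58.1 fit (R 4.3.3) held all 12 arrays with 1 mean per group (7 residual degrees of freedom), and its moderated two-sided contrast was adjusted over all probe sets by Benjamini-Hochberg, with a threshold of 0.05. All adjusted p-values in the text are limma's. The number of arrays limits the precision. The fit was also run on simulated data with independent noise drawn from its own variances. Such data cannot show whether the spread between real arrays is technical.

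The members and the 46 gene lists (1229 of 1330 entries with a probe set) were chosen with earlier results of these data known. Genes were named by rule: the 15 largest increases and 15 largest decreases past the threshold with no overlap between the groups' arrays, up to 8 members per list with the smallest adjusted p, markers, and preset members of each list. Markers that did not pass are mostly given as counts. Alternatives were a fit of the 4 arrays alone, an intensity trend with robust variances, array weights, leaving out dim probe sets (below 2.96), the replicate letter as a block, and leaving out each array.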

Additional observations from a re-analysis of the deposited data

How the results depend on the processing

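Leaving out 1 array in turn gave 1364 to 1659 probe sets higher and 1426 to 1700 lower, with fewer arrays in each fit. The lone array left in a group was assumed to vary like the other groups. The other alternatives gave 1803 to 2509 higher and 1932 to 2984 lower. With the replicate block, the letter as a term over all 12 arrays, 1803 were higher and 1932 lower. The letters were not taken as pairs, since the groups share 1 letter, C. Deviations of the C arrays correlated at r = 0.0593, and so did those of day 22 A and day 15 B. With 2 arrays a group the deviations mirror each other, so this value cannot single out same-lettered arrays. Alternatives were followed gene by gene for 283 named genes, which did not include all lower members of the FGF and ERK feedback list. Of the genes followed that were past the threshold, 10 did not pass with the block: DHRS3, DNAH5, FGFR2, HOXC13, KRT20, SCNN1G, SP5, TGFB2, WNT7B and ZEB1. Of the 235 followed genes past the threshold, 207 kept their direction and the call under all 9 alternatives that gave a value. Another 28 lost the call under at least 1, and 0 reversed. Followed genes that changed sign had not passed. On leaving out an array, the log2 difference ran over -0.078 to 0.027 for CDH1, -0.20 to 1.68 for CDX2, -0.39 to 0.032 for EGR1, -0.23 to 0.46 for FGFR4, -0.45 to 0.041 for FOXA1, -0.37 to 0.73 for FOXP2, -0.15 to 0.16 for GATA6, -0.36 to 0.020 for HHIP, -0.14 to 0.36 for ID1, -0.30 to 0.060 for IRX4, -0.17 to 0.0073 for IRX6, -0.13 to 0.035 for JUN, -0.17 to 0.35 for KRT7, -0.031 to 0.24 for NKX2-1, -0.22 to 0.92 for SFTPD, -0.17 to 0.31 for SPDEF and -0.10 to 0.10 for ZEB2. With the replicate block, it was 0.019 for FOXJ1, -0.087 for GATA6, -0.074 for ID1, 0.0028 for IRX6, 0.11 for JUN, -0.16 for KRT7 and -0.014 for SFTPD. Of list counts of at least 4, these moved by over 1.5 times under an alternative: 5 to 9 higher (main 8) for apolipoproteins and lipid export, 3 to 5 higher (main 5) for axon guidance, 9 to 16 lower (main 14) for axon guidance, 5 to 9 lower (main 9) for BMP ligands, antagonists and targets, 5 to 10 higher (main 9) for claudins and junctions, 2 to 5 higher (main 4) for collagens and matrix, 3 to 5 lower (main 5) for Hedgehog pathway, 2 to 4 lower (main 4) for immediate early, 2 to 5 lower (main 4) for imprinted and oncofetal, 3 to 9 lower (main 7) for interferon-stimulated, 7 to 11 higher (main 11) for iron and heme, 0 to 4 higher (main 4) for MHC and antigen presentation, 1 to 12 lower (main 5) for mitosis and G2/M, 7 to 11 lower (main 7) for neuronal adhesion and synapse, 3 to 5 lower (main 5) for Notch pathway, 1 to 14 lower (main 10) for replication and G1/S, 2 to 6 lower (main 5) for retinoic acid pathway, 12 to 26 higher (main 20) for secretory pathway and unfolded protein response and 1 to 5 higher (main 4) for Wnt ligands and receptors. The cause was not tested. With 2 arrays a group and values compressed near the floor, small differences of dim probe sets could not be resolved.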
